A study of Mus musculus with 11 samples.

Results

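The genes described here are the 6 EGR and NR4A transcription factor genes induced by T-cell activation, Egr1, Egr2, Egr3, Nr4a1, Nr4a2 and Nr4a3. They were taken as the array rows that carry exactly 1 of these symbols, and each of the 6 had a single such row, among 19937 genes measured by rows with 1 symbol. EGR proteins are zinc finger factors that bind GC-rich sites, and NR4A proteins are orphan nuclear receptors that act without a known ligand. Both are transcribed within minutes of T-cell receptor engagement, through RAS, MAPK and SRF and through calcium, MEF2 and CREB. In T-cells Egr2, Egr3 and the NR4A factors are best known for tolerance, exhaustion and regulatory T-cell fate, so they serve as a readout of recent or chronic receptor signaling.

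The study asked how expression profiles change from normal T-cells to the sub-clinical and the overt stage of a TCL1A-driven leukemia. Splenic T-cells of Lckpr-TCL1A+/- mice, which carry human TCL1A under the proximal Lck promoter of the T-lineage, were profiled in the chronic phase (3 arrays, 30 to 70% tumor cells in blood and spleen, average age 12 months) and in the exponential phase (5 arrays, over 80% tumor cells in blood and over 90% in spleen, average age 15 months, lymphocyte doubling time of 12 days with an SEM of 0.8). Age-matched C57BL/6 wild-type mice gave 3 arrays, each from pooled T-cells of 3 mice, and no agent was given to any group as far as the labels say. By the labels, CD8+ T-cells were enriched from the leukemic spleens and pan-CD3+ T-cells from the wild-type spleens, and the 2 kinds of selection and the genotype cannot be told apart in any comparison with wild type.

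All values are log2 signals after RMA and quantile normalization, and the median of all rows of an array was 2.30. Cd8a, the alpha chain of the CD8 co-receptor, lay between 6.16 and 8.31 on 10 of the 11 arrays. On exponential replicate 4 Cd8a was 2.96 and Cd4 was 5.18, against a Cd4 range of 2.15 to 2.44 on the other exponential arrays, so this array went against its CD8 label. The summed level of 11 CD4 helper and regulatory T-cell markers (log2 of the sum) was 10.39 to 10.96 on the wild-type arrays, 6.42 to 7.74 on the chronic and 6.55 to 8.65 on the exponential arrays. Ctla4 was the highest of these markers in wild type (9.62 to 10.37) and weighs most in the sum there. The sum of 12 myeloid markers was 6.10 to 6.20 on the wild-type, 5.99 to 6.19 on the chronic and 7.26 to 9.71 on the exponential arrays. For 5 erythroid markers it was 8.69 to 9.97 on the wild-type, 4.55 to 9.53 on the chronic and 4.59 to 6.42 on the exponential arrays, where Car1, the red-cell carbonic anhydrase, was called lower (log2 difference -6.11, limma adjusted p = 0.0114). Alas2, Epor and Klf1 lay between 1.95 and 3.07 on every array, so the differences in this sum follow Car1 and Car2. In bulk RNA, fewer cells of a type and less RNA per cell cannot be told apart.

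Promoter windows from RefSeq (build GRCm38.p6) were searched for the elements through which these genes are usually induced, in the 250 bases before each start site. The core of the CREB site, TGACG on either strand, occurred 4 times each before Nr4a1, Nr4a2 and Nr4a3. At least 1 such core was found in 17.8% of 32851 windows of the same length, and at least 4 in 0.137%. The Nr4a2 window is printed whole because it lies outside the annotated gene. The windows shown for Egr2, Nr4a1 and Nr4a3 overlap their annotated genes by 250, 250 and 227 of the 250 bases. Of these a single stretch of 30 bases with 1 or more matches is given. The remaining cores lie outside these stretches, 3 of 4 for Nr4a1, 2 of 4 for Nr4a3 and 1 of 2 for the Egr2 window shown. Capitals mark the cores, the EGR-type site GCGGGGGCG and the SRF-binding CArG box, and each run reads 5′ to 3′ on the gene's strand.
Nr4a2 (chr2:57124004-57124253, minus strand, the bases directly before the start site): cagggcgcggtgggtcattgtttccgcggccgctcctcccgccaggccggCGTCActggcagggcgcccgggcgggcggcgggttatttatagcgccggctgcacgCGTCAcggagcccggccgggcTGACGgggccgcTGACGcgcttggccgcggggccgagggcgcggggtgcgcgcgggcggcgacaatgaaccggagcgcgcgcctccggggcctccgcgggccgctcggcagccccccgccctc
Nr4a3 (chr4:48045083-48045112, plus strand, 222 to 193 bases before the start site): gtcccatgtCGTCAcatTGACGtctcgcat
Nr4a1 (chr15:101266782-101266811, plus strand, 64 to 35 bases before the start site): gtggCGCCCCCGCccctctccatgCGTCAc
Egr2 (chr10:67537795-67537824, plus strand, 74 to 45 bases before the start site): gtCCATATATGGgcagcgaCGTCAcgggta

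The Egr2 stretch holds a CArG box, present in 1.47% of all windows, next to a TGACG core on the opposite strand. That share is per window, while Egr2 had 5 windows, some of which overlap and hold this same box. The Nr4a1 stretch holds the EGR-type site on its opposite strand, as 2.57% of windows did on either strand. The full CREB site TGACGTCA, the NR4A site AAAGGTCA, the EGR site GCGTGGGCG and the AP-1 site TGANTCA had 0 matches on either strand in the 8 windows of these 4 genes, and 1 of the 5 Egr2 windows held none of the motifs searched. These are matches of letters and were not tested for binding.

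Most of the 6 genes had lower means in the leukemias than in wild type, and single genes passed the test in different comparisons. Egr2 was lower in the chronic phase than in wild type, and Nr4a2 was lower in the exponential phase and in all leukemias together. Egr1, Nr4a1, Nr4a3 and Egr3 passed the test in no comparison (adjusted p under 0.05 and a fold of at least 1.5, limma with Benjamini-Hochberg over all genes). In the chronic phase 1 of 6 members was called, where 0.456% of all genes were called and 0.316% were called lower. At an unadjusted p under 0.05, all members but Egr3 were lower there, 5 of 6, against 11.2% of all genes in either direction. In the exponential phase 1 of 6 was called, where 0.416% of genes were called and 0.281% lower. Here 2 of 6 were lower at an unadjusted p under 0.05, against 9.78% of genes in either direction. The same wild-type arrays served both comparisons.

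**Figure D1:**
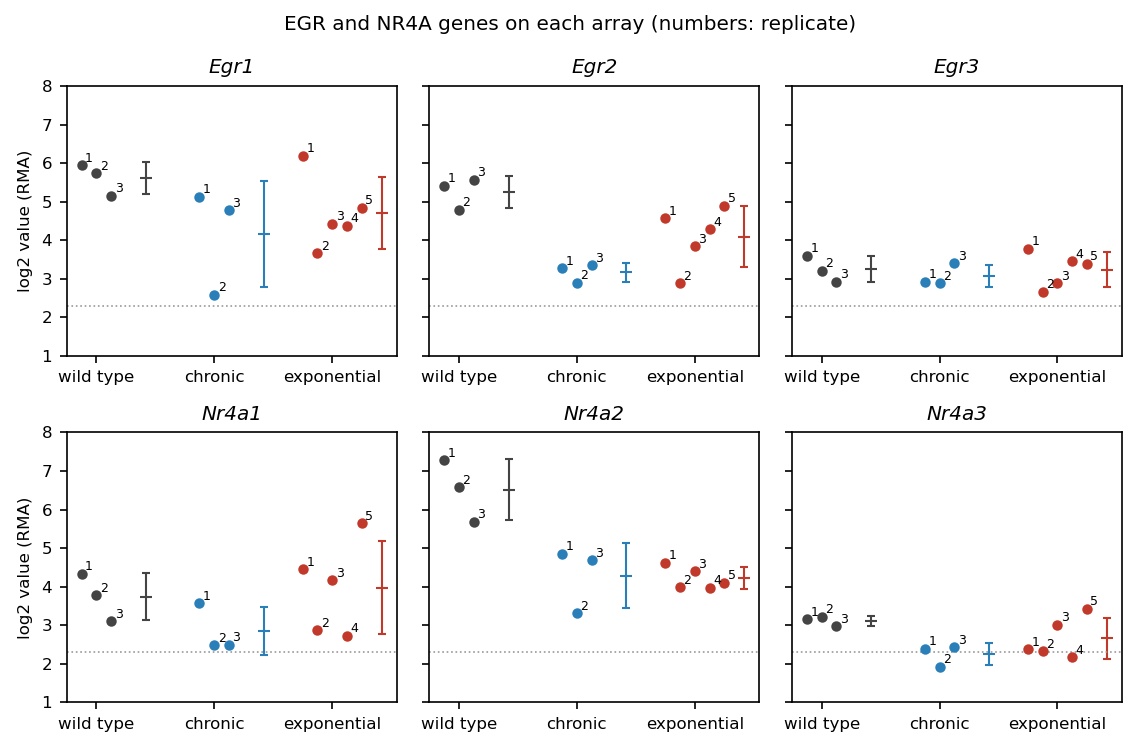
Log2 value (y axis) of each of the 6 genes on each array, by group, with replicate numbers beside the points, the group mean and SD at the right of each group, and a dotted line at 2.30, the median of all rows. Nr4a2 lies below every wild-type array on all 8 leukemia arrays, Egr2 is low and tight in the chronic phase, and Egr1 and Nr4a1 spread most widely among the leukemias.

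Egr1, the founding immediate-early EGR factor, measured 5.95, 5.74 and 5.15 on the wild-type arrays. The chronic arrays measured 5.13, 2.58 and 4.78 and the exponential arrays 6.19, 3.66, 4.43, 4.38 and 4.85. All 3 chronic arrays were below wild type, the first of them only just, while exponential replicate 1 was above every wild-type array and the other 4 were below. The mean was 5.61 ± 0.41 (SD, n = 3) in wild type, 4.16 ± 1.38 (n = 3) in the chronic and 4.70 ± 0.94 (n = 5) in the exponential phase. The log2 difference to wild type was -1.45 in the chronic phase (SE 0.61, limma adjusted p = 0.433). Exponential arrays differed by -0.91 (SE 0.47, limma adjusted p = 0.600). Without chronic replicate 2, the lowest Egr1 array of all, the chronic difference shrank to -0.66.

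Egr2, which with Egr3 restrains effector T-cells through inhibitory genes, measured 5.42, 4.79 and 5.57 on the wild-type arrays and 3.27, 2.89 and 3.35 on the chronic arrays. The exponential arrays ranged widely, at 4.57, 2.88, 3.84, 4.28 and 4.90. The chronic arrays formed a tight low group with a gap of more than 1 log2 unit to wild type, while exponential replicate 5 reached into the wild-type range. Egr2 was 4.25-fold lower in the chronic phase (log2 difference -2.09, SE 0.23, limma adjusted p = 0.0166). The exponential phase differed by -1.16 (SE 0.40, limma adjusted p = 0.350), with 4 of 5 arrays below wild type. The chronic call was lost without wild-type replicate 1 (limma adjusted p = 0.0777) or replicate 3 (0.0622), with adjusted p from 0.0249 to 0.0777 over the 6 arrays left out in turn. The log2 difference itself stayed between -2.32 and -1.93.

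Egr3 measured 3.60, 3.21 and 2.92 in wild type, 2.92, 2.89 and 3.41 in the chronic and 3.79, 2.67, 2.88, 3.45 and 3.40 in the exponential phase. The 3 groups overlapped throughout. The log2 difference to wild type was -0.17 in the chronic phase (95% interval -0.67 to 0.32, limma adjusted p = 0.861). Exponential arrays differed by -0.01 (95% interval -0.58 to 0.57, limma adjusted p = 0.996). Whether this row lies above background was not determined.

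The partners of EGR proteins were examined beside them. Nab1 and Nab2, corepressors that bind EGR factors and are themselves EGR targets, ranged over all arrays from 4.50 to 5.63 and from 3.45 to 4.82. The chronic Nab2 arrays (3.45 to 4.00) were all below wild type (4.01 to 4.65), with a log2 difference of -0.53 (SE 0.21, limma adjusted p = 0.403). Egr4, a relative expressed mainly in neurons, stayed between 2.08 and 2.72. Of these 3 genes and Wt1, 0 of 4 were called by limma in any comparison, and Nab2 in the chronic phase was the 1 value with an unadjusted p under 0.05.

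Nr4a1, known as Nur77 and used as a reporter of receptor signal strength, measured 4.34, 3.78 and 3.11 in wild type and 3.58, 2.48 and 2.49 in the chronic phase. The exponential arrays measured 4.46, 2.88, 4.16, 2.72 and 5.65. Exponential replicates 1 and 5 were above every wild-type array and replicates 2 and 4 were below every one, so the phase held values on both sides of wild type. The log2 difference to wild type was -0.89 in the chronic phase (SE 0.38, limma adjusted p = 0.445). Exponential arrays differed by 0.23 (SE 0.62, limma adjusted p = 0.953), which turned to -0.19 without replicate 5 and to -0.08 without wild-type replicate 3.

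Nr4a2, known as Nurr1 and linked to Foxp3 and regulatory T-cell identity, measured 7.28, 6.58 and 5.69 in wild type. It measured 4.86, 3.31 and 4.69 in the chronic and 4.62, 3.98, 4.41, 3.97 and 4.11 in the exponential phase. Every leukemia array lay below every wild-type array. The exponential arrays lay close together, and their SD of 0.29 was the smallest exponential SD of the 6 genes. Nr4a2 was 4.91-fold lower in the exponential phase (log2 difference -2.30, SE 0.31, limma adjusted p = 0.0183). The chronic difference of -2.23 was of similar size with a larger error (SE 0.50, limma adjusted p = 0.130) and was not called. Over all 8 leukemias Nr4a2 was 4.83-fold lower (log2 difference -2.27, SE 0.34, limma adjusted p = 0.00967).

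Nr4a2 was again the 1 member of 6 called in all leukemias against wild type, where 0.722% of genes were called and 0.441% called lower. A full separation with all 8 leukemia arrays below wild type was seen for 1.65% of genes. The exponential call was lost without wild-type replicate 2 (limma adjusted p = 0.0770), or without exponential replicate 2 (0.0565), replicate 3 (0.0519) or replicate 5 (0.0633), over a range from 0.00597 to 0.0770. It held without exponential replicate 4 (-2.23, limma adjusted p = 0.0132). The call over all leukemias was lost without wild-type replicate 1 (log2 difference -1.89, limma adjusted p = 0.0648), over a range from 0.00808 to 0.0648. The log2 difference of both comparisons stayed between -2.71 and -1.89 whichever array was left out.

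Nr4a3, the third NR4A receptor, measured 3.16, 3.23 and 2.98 in wild type and 2.40, 1.93 and 2.43 in the chronic phase. The exponential arrays measured 2.38, 2.33, 3.01, 2.17 and 3.43. The chronic arrays were all below wild type, while exponential replicate 3 fell within the wild-type range and replicate 5 lay above it. The chronic values lay near 2.30, the median of all rows, and whether this row lies above background was not determined. The log2 difference to wild type was -0.87 in the chronic phase (SE 0.17, limma adjusted p = 0.0893). Exponential arrays differed by -0.46 (SE 0.27, limma adjusted p = 0.662).

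Counting arrays without overlap, Egr1, Egr2, Nr4a2 and Nr4a3 had all 3 chronic arrays below all 3 wild-type arrays, 4 of 6 members, against 7.52% of all genes. In the exponential phase this held for Nr4a2 alone, 1 of 6, against 3.5% of genes. The median log2 difference of the 6 genes was -1.17 in the chronic phase and -0.69 in the exponential phase, beside medians of -0.0017 and 0.0067 over all genes.

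**Figure D2:**
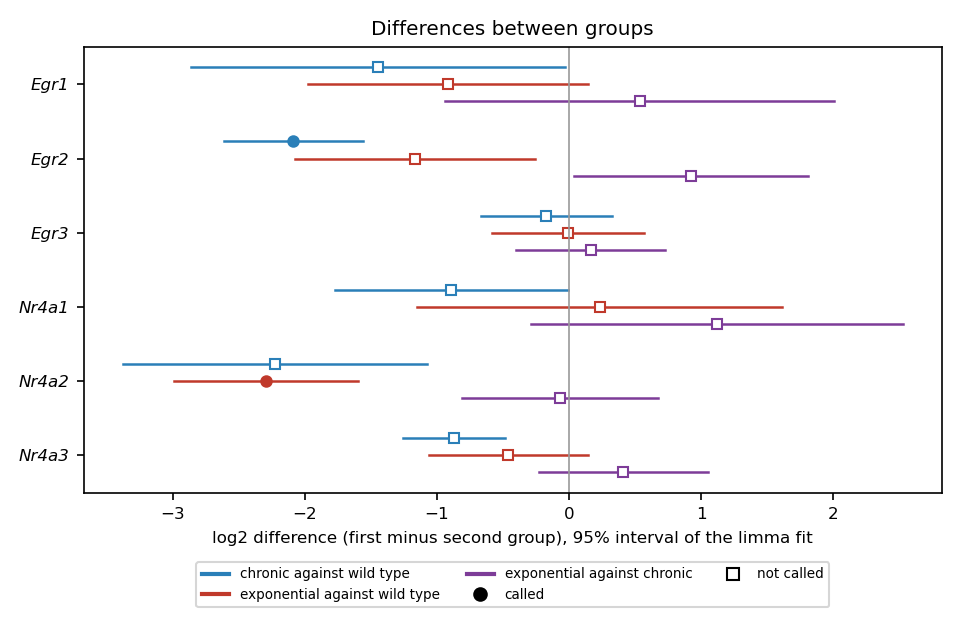
Log2 difference between groups (x axis) for each gene in 3 comparisons, with the 95% interval of the limma fit. Filled circles passed the test and open squares did not. Egr2 is called in the chronic phase and Nr4a2 in the exponential phase, and the intervals of exponential against chronic reach 0 or lie near it for all 6 genes.

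Exponential and chronic phases were compared directly, since a call in one phase alone does not show that the phases differ. No member was called, and 0% of all genes were (0 of 19937 by limma and 0 by the methods' t-test after adjustment, against 215 and 123 at an unadjusted p under 0.05 with the same fold). Egr2 was 0.92 higher on the log2 scale in the exponential phase (95% interval 0.04 to 1.81, limma adjusted p = 0.795), with the arrays overlapping at exponential replicate 2. Nr4a1 was 1.12 higher (95% interval -0.28 to 2.53, limma adjusted p = 0.830). Nr4a2 differed by -0.07 (95% interval -0.81 to 0.67, limma adjusted p = 0.983). For Egr1, Egr3 and Nr4a3 the differences were 0.54, 0.16 and 0.41, all with limma adjusted p of 0.860 or more. The difference of Egr1 turned to -0.26 without chronic replicate 2, and that of Nr4a2 to 0.22 without chronic replicate 1 and 0.14 without chronic replicate 3. Myeloid marker sums were higher on every exponential array than on every chronic array. The means of 8 of 8 B-cell markers were higher in the exponential phase (median log2 difference 0.37). Of 9 NK and cytotoxic markers, 6 were lower (median -0.92), beside 48.9% of all genes. The sums of both lists overlapped between the phases. The part of these markers and of the tumor cell share in the differences of the 6 genes was not tested.

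Single leukemias differed in how much of the program they showed. Chronic replicate 2 and exponential replicate 2 were below all wild-type arrays for all 6 genes. Ranked from 1, the lowest, to 8 among the leukemias, their mean ranks over the 6 genes were 1.5 and 2.33. Exponential replicates 1 and 5 had the highest mean ranks, 6.67 and 6.5, and were above all wild-type arrays for 3 and 2 genes. These were Egr1, Egr3 and Nr4a1 on replicate 1 and Nr4a1 and Nr4a3 on replicate 5. The range over leukemias was 3.60 log2 units for Egr1 and 3.16 for Nr4a1, against 0.80 and 1.23 over the wild-type pools, which average 3 mice each. Nr4a2 ranged over 1.55 in the leukemias and 1.59 in wild type.

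**Figure D3:**
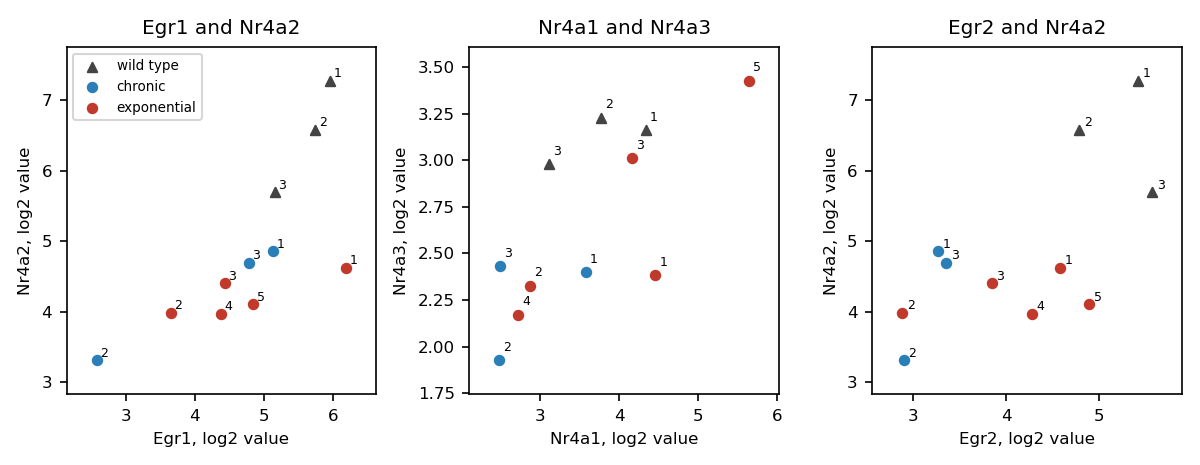
Log2 values of 3 pairs of genes on each array (both axes), with wild type as triangles, leukemias as circles and replicate numbers beside them. Among the 8 leukemias Egr1 and Nr4a2 rise together (r = 0.84), as do Nr4a1 and Nr4a3 (r = 0.84), while Egr2 and Nr4a2 vary more independently (r = 0.21), and the wild-type arrays stand apart in Nr4a2.

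Over the 8 leukemia arrays all 15 pairs of members had a positive Pearson's r, from 0.12 to 0.84 with a median of 0.55. By exact two-sided permutation tests 4 pairs had an unadjusted p under 0.05 and 0 passed after adjustment over the 15 pairs. The largest were Nr4a1 with Nr4a3 (r = 0.84, exact permutation p = 0.0099, adjusted p = 0.0811, Spearman's rho = 0.67, p = 0.0831, adjusted p = 0.249) and Egr1 with Nr4a2 (r = 0.84, exact permutation p = 0.0108, adjusted p = 0.0811, rho = 0.81, p = 0.0218, adjusted p = 0.249). Without the 2 arrays farthest from the median of the first gene, r was 0.83 for the first pair and 0.71 for the second. After the phase means were subtracted the r of Egr1 with Nr4a2 was 0.89 (exact permutation adjusted p = 0.0439), and without exponential replicate 4 that of Egr2 with Nr4a1 was 0.92 (exact permutation adjusted p = 0.0387). Over all 8 arrays the r of Egr2 with Nr4a1 was 0.76 and fell to 0.29 once exponential replicates 1 and 5 were left out. With replicate 4 left out as well, r was 0.76.

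The genes whose pattern over all 11 arrays was most like that of each member were sought among 1112 genes above the median with an SD of at least 0.5. These correlations are descriptions, and the arrays share the difference between wild type and leukemia. Egr1 was nearest to Fos (r = 0.95), Zfp36 (0.94) and Dusp1 (0.92), an AP-1 subunit, an mRNA-decay factor and a MAPK phosphatase that are all immediate-early genes. Egr2 was nearest to Rgs1 (0.92), Baz2b (0.91) and Mdfic (0.90), and Egr3 to Qk (0.87), Sf3b4 (0.83) and Fabp3 (0.79). Nr4a1 was nearest to Maff (0.94), Gch1 (0.93) and Rhoh (0.91), and Nr4a3 to Got1 (0.95), Setbp1 (0.90) and Bhlhe40 (0.89). Nr4a2 was nearest to Sostdc1 (0.97), the inhibitory receptor gene Tigit (0.96) and the enkephalin gene Penk (0.95).

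Among 43 other immediate-early genes, 37 were below wild type in the chronic phase, with 4 called lower and 1 called higher and a median log2 difference of -0.54. Over all genes 50.3% were below wild type and 0.456% were called there, and 48.3% and 0.416% in the exponential phase. Rgs1 and Rgs2, which damp G-protein signaling, fell by 1.67 and 1.82 on the log2 scale, the zinc finger gene Klf6 fell by 2.00 and Il2ra, the IL-2 receptor alpha chain, by 1.85. Myc rose by 1.29 (limma adjusted p = 0.0379), against the direction of the list. In the exponential phase 34 of 43 were below wild type, with 2 called lower and 0 higher and a median of -0.39. Those were Il2ra (-1.77) and the survival gene Ier3 (-0.89). The sum of the list was 11.88 to 12.50 on the wild-type, 10.59 to 11.54 on the chronic and 10.94 to 12.39 on the exponential arrays. Fos itself was 6.03 ± 0.20 (SD, n = 3) in wild type, 4.46 ± 1.10 (n = 3) in the chronic and 5.03 ± 0.81 (n = 5) in the exponential phase and was not called. Rgs2 was named after its values were seen.

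**Figure D4:**
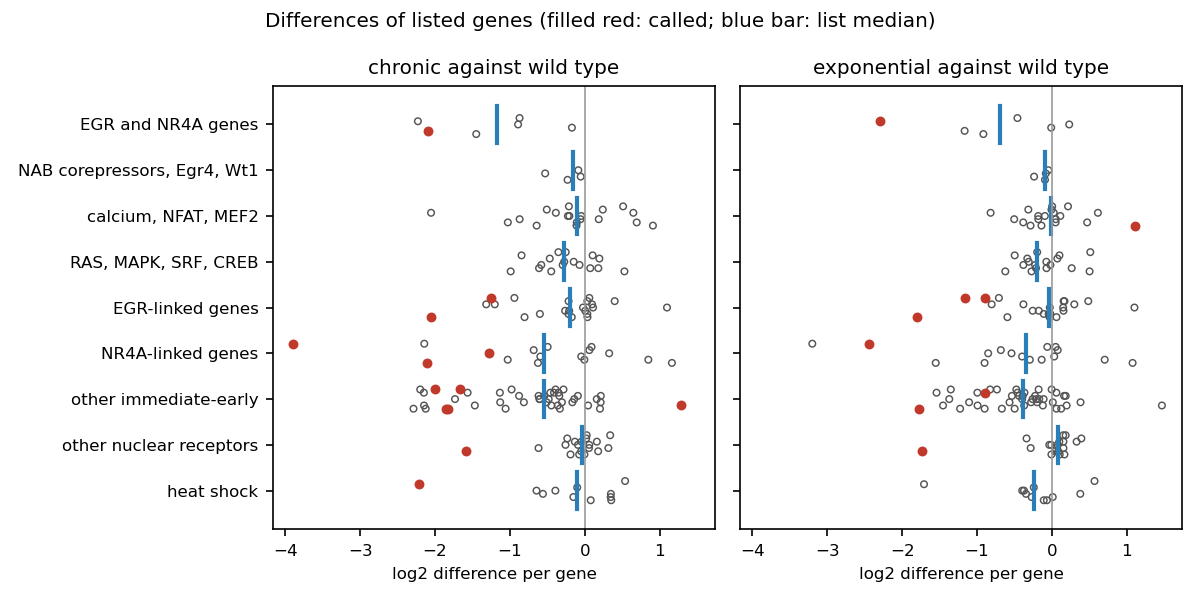
Log2 difference to wild type (x axis) of every measured gene of 9 lists in the chronic (left) and exponential (right) phase. Points are genes, filled red where called, and blue bars are list medians. The EGR and NR4A genes and the other immediate-early genes have medians below 0 in both panels, while the medians of the upstream calcium and MAPK genes lie closer to 0.

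Genes upstream of these factors gave 1 call. Of 19 measured calcium, calcineurin, NFAT and MEF2 genes, limma called 0 lower in either phase. Their log2 differences ran from -2.05 to 0.91 in the chronic phase. An unadjusted p under 0.05 was reached by 8 in the chronic and 3 in the exponential phase, 4 and 1 of them lower. Over all genes that p was reached in either direction by 11.2% and 9.78%. Ppp3cc, a catalytic subunit of calcineurin, rose by 1.11 in the exponential phase (SE 0.18, limma adjusted p = 0.0418) and was 0.91 higher in the chronic phase without passing (limma adjusted p = 0.264). The regulatory subunit gene Ppp3r1 was higher on every leukemia array of both phases, by 0.69 and 0.47, and did not pass (limma adjusted p = 0.106 and 0.210). Nfatc1 and Camk4 differed by -0.64 and -1.03 in the chronic phase and did not pass (limma adjusted p = 0.0838 and 0.106). Of 17 measured RAS, MAPK, SRF and CREB genes limma called 0 in any comparison. The mean of 12 was below wild type in each phase, beside 50.3% of all genes in the chronic and 48.3% in the exponential phase. Of the 12, 5 had an unadjusted p under 0.05 in each phase. In either direction that p was reached by 5 of 17 in the chronic and 6 in the exponential phase. The largest chronic difference among them was that of the SRF partner Elk3 (-0.99, limma adjusted p = 0.0753).

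Among 22 EGR-linked genes, 13 were below and 9 above wild type in the chronic phase, and 14 below and 8 above in the exponential phase. Over all genes 50.3% were below wild type in the chronic and 48.3% in the exponential phase. List medians were -0.19 and -0.04, and the largest rise was 1.10 in each phase. Tnfrsf9, the costimulatory receptor 4-1BB, was lower in the chronic (-1.25, limma adjusted p = 0.0166) and the exponential phase (-1.16, limma adjusted p = 0.0128). Nrp1, a semaphorin receptor of regulatory T-cells, fell by 2.05 and 1.80 (limma adjusted p = 0.0305 and 0.0183), and Nrn1, which encodes neuritin, was lower in the exponential phase (-0.89, limma adjusted p = 0.0312). None of the 22 was called higher in either phase. Among 16 NR4A-linked genes, 11 were below wild type in each phase, with list medians of -0.54 and -0.34. Called lower in the chronic phase were 3, the transcription factor genes Ikzf2 (-3.89), Tox (-2.10) and Runx1 (-1.28). Their means were below wild type in the exponential phase as well (4.44, 5.03 and 3.61 against 7.64, 6.58 and 4.46) without being called. Exponential replicate 4 held the highest exponential value of each, at 6.88, 6.85 and 4.73. Tigit fell in the exponential phase (-2.44, limma adjusted p = 0.00168), and its chronic mean was also below wild type (4.69 against 6.84) without being called. Foxp3, the regulatory T-cell factor, differed by -0.68 in each phase without passing (limma adjusted p = 0.0787 and 0.0782), and over all leukemias it fell (limma adjusted p = 0.0132).

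Several of these genes mark the CD4 and regulatory T-cells that a pan-CD3 selection holds and a CD8 selection removes. Of the 11 CD4 helper and regulatory markers, 7 were called lower in the chronic and 2 in the exponential phase, against 0.316% and 0.281% of all genes. At an unadjusted p under 0.05, 10 of 11 were lower in each phase, against 11.2% and 9.78% of all genes in either direction. The list medians were -1.85 and -1.59. The inhibitory receptor gene Ctla4 differed by -4.32 and -4.33 (limma adjusted p = 0.0111 and 0.0670). Foxp3, Ikzf2 and Il2ra stand both on that list and on the lists above. The part of this shift, and of the shifts of the erythroid and myeloid marker sums in the exponential phase, in the lower Egr2 and Nr4a2 was not tested. On exponential replicate 4, where Cd4 was 5.18 and Cd8a 2.96, Nr4a2 was 3.97 and Egr2 4.28, both below every wild-type array. Among the same 11 markers, Foxp3 (2.24), Ctla4 (3.85) and Il2ra (2.07) had their lowest exponential values there. Cd4, Ikzf2 (6.88), Icos (7.525), Cd40lg (3.545), Il21 (3.381) and, narrowly, Zbtb7b (2.467 against 2.465 on replicate 1) had their highest. This is 1 array, and the part of its cell composition in these values was not tested.

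Of 19 other nuclear receptor genes only Rora, a retinoid-related orphan receptor, was called in the chronic (-1.59, limma adjusted p = 0.0452) or exponential phase (-1.74, limma adjusted p = 0.00410). Of 11 measured heat shock genes, which respond to handling as well as to stress, Hspa1a fell in the chronic phase (-2.21, limma adjusted p = 0.0166), with chronic arrays at 3.28 to 3.79 against 5.34 to 6.23 in wild type and 2.54 to 6.00 in the exponential phase. The list sum overlapped between groups, at 11.64 to 12.12 in wild type, 11.97 to 12.22 in the chronic and 11.71 to 12.20 in the exponential phase. Bright genes such as Hspa8 (9.095 to 10.507 over all arrays) weigh most in it, so the sum says little about dimmer genes. Of the 11, 6 were below wild type in the chronic and 8 in the exponential phase, beside 50.3% and 48.3% of all genes. Hsph1 was also below wild type on every chronic array (6.155 to 6.592 against 6.624 to 7.546) and was not called. The part of cell handling in the immediate-early values was not tested.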

How the data were processed

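Splenic T-cell RNA of 11 samples was hybridized to Mouse Gene 1.0 ST arrays (Affymetrix). The deposited log2 values had been background-corrected by RMA and quantile-normalized by the authors with R's affy package (version not given in the sources used here). The log base was judged from the range of 0.775 to 13.5. Rows with 1 gene symbol in the platform annotation were used (21640 of 34760), and the row with the highest mean was kept for each of 19937 genes, without a filter on dim rows. The number of arrays limits the precision, and the level of background was not determined. Groups were taken from the titles. Whether each leukemia array is 1 mouse is not given, and p-values cover only the spread among the arrays at hand, which may in part be technical.

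Each comparison was fitted on the arrays of its own groups with limma 3.58.1 in R 4.3.3 (lmFit, eBayes), with Benjamini-Hochberg adjustment over all genes, and calls needed both a fold of 1.5 or more and an adjusted p under 0.05. Standard errors come from the moderated fit. The fits were tested on simulated data. Correlations used exact permutation of the arrays in Python 3.11.15 with scipy 1.17.1. The genes and lists were chosen with earlier results of these data known. Named are the 6 genes, Nab1, Nab2, Egr4, Cd8a and Cd4, up to 4 genes of a list with the smallest p in a comparison, and the 3 most similar genes of each member. Further genes of the lists, such as Icos, were named after their values were seen, to describe list sums or single arrays. Promoter windows of 4 members came from RefSeq (GRCm38.p6), and bases beyond the start site were not searched.

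Same-numbered arrays of different groups deviated together only weakly (r of -0.037 to 0.18), so replicate numbers were not taken as pairs. As alternatives, all groups were fitted together, replicate numbers were blocked, the dimmest 30% of genes were left out, arrays were normalized again (cyclic loess or median centring), eBayes was run with trend and robust or with array weights, the methods' t-test was used, rows of a gene were averaged, the fold threshold was dropped, and single arrays were left out in turn.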

Additional observations from a re-analysis of the deposited data

Results flagged for a closer look

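Dixon's ratio was computed in the 5 exponential arrays for 48 genes of the text, and 5 had a value far from the other 4 arrays, all on exponential replicate 4. Chance flags about 1 in 20 such groups. None of the 6 EGR and NR4A genes was among them. Cd8a was 2.96 there against 7.94 to 8.20 on the other exponential arrays, and Cd4 was 5.18 against 2.15 to 2.44. Nfatc1 was 5.52 against 3.50 to 4.06, Camk4 was 5.88 against 3.93 to 4.39, and Tox was 6.85 against 4.24 to 4.85.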

How the results depend on the processing

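Of 462 values of single members under the alternatives, 430 kept their direction and their side of the threshold, 11 lost a call, 6 gained one and 15 changed sign. Changes of sign were seen for differences of at most 0.54 in size. The chronic call of Egr2 was lost in 1 fit over all groups (limma adjusted p = 0.0608), which left 0 members called, and the calls of Egr2 and Nr4a2 were lost under the methods' t-test after Benjamini-Hochberg adjustment (0 members in each comparison, and 0, 4 and 46 genes in the chronic, the exponential and all leukemias). Unadjusted, the t-test called 623, 477, 123 (exponential against chronic) and 543 genes, with 3 members in the chronic phase and 2 in all leukemias. A variance trend with robust estimation called 154 genes in the chronic phase and 2 members, Nr4a3 as well (limma adjusted p = 0.0386). The cause was not tested.

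With the replicate block, fitted on the arrays whose numbers both groups hold, 139 genes and 2 members were called in the exponential phase and 264 genes and 2 members in all leukemias, Egr2 being added in both (-1.49 and -1.79), and no other call changed for a member. In exponential against chronic, Nr4a2 turned to 0.051 with the block and 0.085 with array weights, and in all leukemias Nr4a1 turned to 0.030 with array weights. Co-variation had 1 pair passing the adjusted test with the phase mean subtracted and 1 without exponential replicate 4, against 0.

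With each array left out in turn, 8 to 108 genes were called in the chronic phase, 16 to 221 in the exponential phase, 0 to 2 between phases and 50 to 273 in all leukemias. Members called were 0 to 1 in each comparison with wild type. Single members that changed sign ran from -0.34 to 0.0065 (Egr3, chronic), -0.17 to 0.17 (Egr3, exponential), -0.19 to 0.55 (Nr4a1, exponential), -0.23 to 0.11 (Egr3, all leukemias), -0.50 to 0.11 (Nr4a1, all leukemias), -0.55 to 0.22 (Nr4a2 between phases) and -0.26 to 1.02 (Egr1 between phases).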
